A study of Macaca fascicularis with 22 samples.

Results

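Gene expression in neonatal cynomolgus macaques (Macaca fascicularis) of lower and of average birth weight was compared on the 6 arrays whose labels give the tissue as liver, out of the 22 arrays of the study. The arrays were taken by their titles, which left 3 arrays of the lower birth weight group (LBW, 5th to 25th centile) and 3 of the average birth weight group (ABW, 50th to 75th centile). All were neonates born at term after natural pregnancies with a common sire, described by the study as female. They were chosen by birth weight, and their growth was not manipulated by experiment. By the methods, neonates were sedated with ketamine before liver and muscle were taken, and dams before the cord was. The labels place the sampling at birth and the methods place that of liver on postnatal day 5. The remaining arrays of the study, 8 from skeletal muscle and 8 that carry the label umbilical cord, served to check the label and as a comparison for the effect of birth weight. The study chose these groups to ask whether gene expression differs within the normal range of birth weights.

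Liver is built mainly of hepatocytes, which make the proteins of the blood plasma, store and release glucose and clear drugs and hormones. Connective tissue is built of fibroblasts in a matrix of collagens and proteoglycans that they secrete, and the umbilical cord is such a tissue around vessels, with a covering of epithelium. In such tissues cytokines of the interleukin-1 family induce chemokines, which draw in leukocytes, and collagenases, which cut the matrix, and dividing cells are seen by the genes of mitosis.

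The levels on the arrays went against the label of liver. The 11 genes of a hepatocyte list that had a name on the array included C4BPB, GC and F13B, which encode plasma proteins, and HNF4A, a transcription factor of hepatocytes. Of these, 7 were not well above background on any of the 6 arrays labelled liver, and 10 were lower on each of these arrays than on each of the 8 arrays labelled umbilical cord. LIPC, the hepatic lipase, had a log2 level of -4.95 ± 0.72 (SD, n = 6) on the arrays labelled liver and of 3.90 ± 1.36 (SD, n = 8) on those labelled umbilical cord, where a level is the log2 signal of a probe minus the 75th percentile of its array. Of 8 genes of connective matrix, 7 were higher on each array labelled liver than on each array labelled umbilical cord and than on each skeletal muscle array. COL1A1, a chain of type I collagen, had a level of 4.92 ± 0.20 on the arrays labelled liver against -1.58 ± 0.78 on those labelled umbilical cord, and VCAN, the proteoglycan versican, of 5.12 ± 0.27 against -1.34 ± 0.80. Only SERPINF1 of these 8 was lower there. MMP1, the interstitial collagenase, was well above background on 6 of 6 arrays labelled liver, 2 of 8 labelled umbilical cord and 0 of 8 of skeletal muscle, and SPRR3, a protein of stratified epithelium, on 6, 1 and 0. All 5 named epithelial genes were higher on each array labelled liver than on each skeletal muscle array. Only 2 of the 5 were higher than on each array labelled umbilical cord. ST6GALNAC1 had a mean of -3.85 on the arrays labelled liver against -2.79 on those labelled umbilical cord. The 3 named genes of striated muscle were lower on the arrays labelled liver than on each muscle array. By these levels the arrays labelled liver carry the genes of a matrix-rich connective tissue with some genes of epithelium and lack those of hepatocytes. They are therefore called by their label and not by a tissue in what follows, and whether labels were exchanged was not tested. All 6 arrays showed the same pattern, so that the comparison of LBW with ABW lies within 1 kind of sample.

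**Figure D1:**
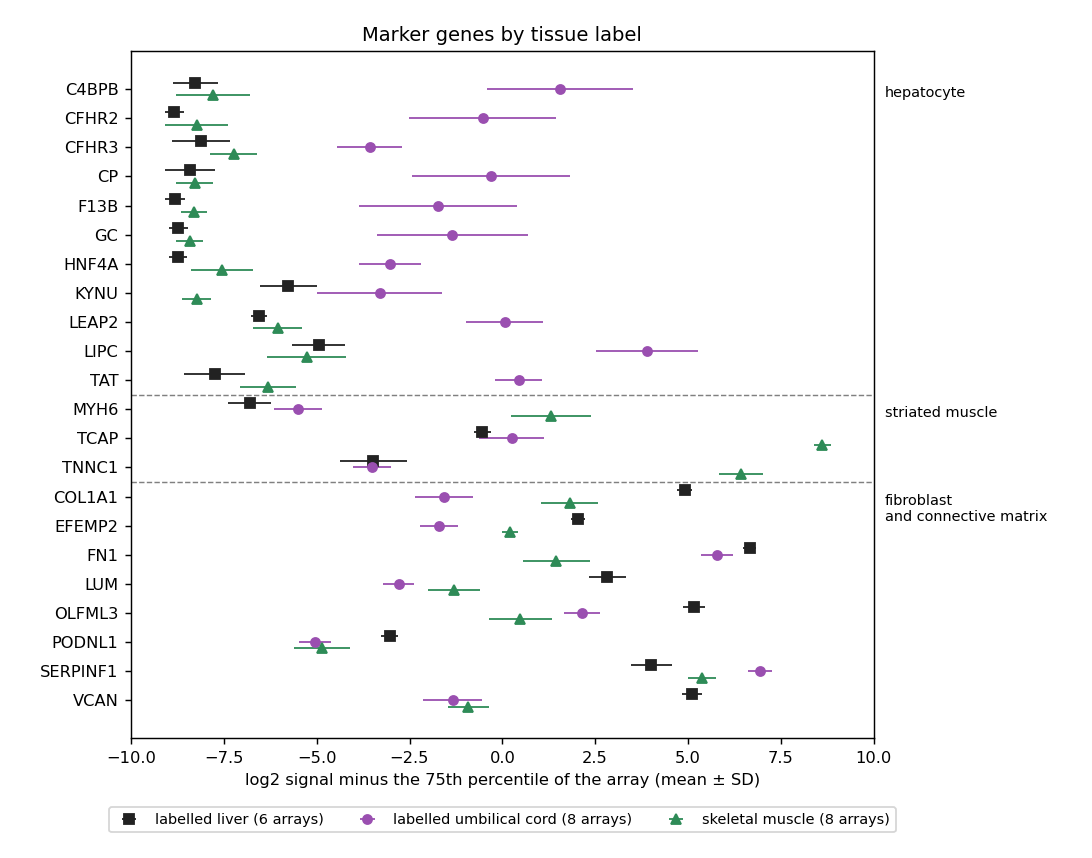
Levels of the named hepatocyte, striated muscle and connective matrix genes (log2 signal minus the 75th percentile of the array, mean ± SD) on the 6 arrays labelled liver, the 8 labelled umbilical cord and the 8 of skeletal muscle. The hepatocyte genes are highest on the arrays labelled umbilical cord, and 7 of the 8 matrix genes on those labelled liver.

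The 75th percentile of the signals before scaling lay between 778 and 1042 on the 6 arrays, and 15352 to 16156 probes of 20217 were well above background. Slides were inferred from scan times, and arrays whose scans shared a time were taken as 1 slide. By this rule the 3 ABW arrays and LBW replicate 1 shared a slide, called slide 3, and LBW replicates 2 and 3 lay on slide 4. LBW replicates 2 and 3 correlated at 0.980 across probes, the closest pair of LBW arrays, whereas the least alike pair of LBW arrays stood at 0.968 and the 3 ABW pairs at 0.976 to 0.981. Pairs of an ABW with an LBW array stood at 0.972 to 0.982, and the highest of them lay above every pair within a group. These correlations are across probes, which are not independent replicates. Slide 4 held no ABW array of this label. The difference with slide as a block therefore equals that within slide 3, LBW replicate 1 minus the mean of the ABW arrays. It is given below as the difference within slide 3 for part of the genes, and a value given without it may still move within that slide. Nothing in the labels ties array numbers to litters or days, and the p-values measure the spread between these 6 arrays alone.

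By limma, 806 of 17117 probes (4.71%) had an unadjusted p under 0.05 with at least a 1.5-fold difference. LBW had the higher mean in 517 of them (3.02%) and the lower in 289 (1.69%). These probes are said below to be called. No probe had an adjusted p under 0.05, and the lowest was 0.145 in limma, where 1025 probes had an unadjusted p under 0.05. The methods' t-test called 310 probes, 224 higher and 86 lower, and likewise 0 after Benjamini-Hochberg adjustment. When 200 of the 17117 probes were given a log2 change of 2 in simulated arrays, an adjusted p under 0.05 found 134 of them, and the unadjusted rule called 715 probes that had no change. The simulated noise was drawn for each probe on its own, with no slide effect and no tie to level. These counts therefore need not hold for the arrays themselves. The excess of higher over lower calls lay among dim probes, with 297 higher and 81 lower in the dimmest of 5 equal bins of probes and 37 and 19 in the brightest. Under normexp background correction the split turned, to 121 higher and 182 lower, and so it did when arrays were scaled to their spike-in controls, to 115 and 147. That scaling raised the median difference over the probes to 0.19, from 0.06. Without LBW replicate 1, 1425 probes were called, of which 577 were among the 806, and within slide 3 it was 1400, of which 279 were among them.

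**Figure D2:**
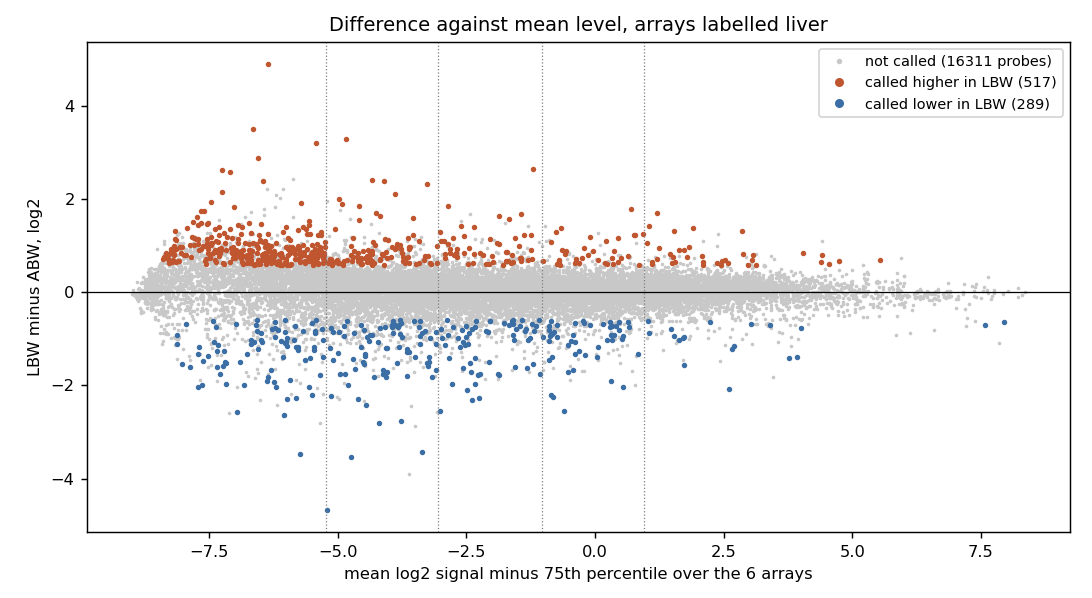
Difference of LBW and ABW means (log2) against the mean level over the 6 arrays labelled liver for 17117 probes, with dotted lines between 5 equal bins of probes by level. The 517 probes called higher in LBW crowd at low levels, where 297 of them lie in the dimmest bin, whereas the 289 called lower are spread more evenly.

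Symbols were available for 1664 of the tested probes, and of these 154 (9.25%) were called, 98 (5.89%) higher and 56 (3.37%) lower, against 652 of 15453 (4.22%) without a symbol. The groups did not overlap for 2059 of all probes, with LBW higher in 1510 (8.82%) and lower in 549 (3.21%). The study listed these genes after a test of birth weight and tissue on the same arrays, so the counts for named genes below are no independent evidence of a direction. The lists hold only probes with a symbol. The background beside each list is therefore the shares of such probes, 5.89% higher and 3.37% lower, and their median difference, 0.14. Over all probes the shares were 3.02% higher and 1.69% lower and the median was 0.06, and 10009 of the 17117 probes had the higher mean in LBW. As the arrays measured whole tissue, fewer cells of a type and less RNA per cell cannot be told apart for any gene named here. Of the 124 probes that the naming rule picked, 52 were called, and 29 of these stayed called with each of the 6 arrays left out in turn. Of the 52 calls, 51 were kept with scaling to the array median and 34 with normexp background correction. Scaling to the spike-in controls kept 31, and the methods' own test kept 22. BUB1B, PDGFRL, UGT1A6, MCAM, RIMS4 and ELMOD1 were among those that lost their call by the methods' own test.

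Some chemokine genes were lower in LBW. Of 5 named chemokines 2 were called lower and 0 higher, and the median difference was -1.67. CXCL1, a chemokine that draws neutrophils, had levels of -0.71, -0.99 and -1.29 on the ABW arrays and of -2.80, -2.43 and -3.05 on the LBW arrays. Every LBW array lay more than 1 log2 unit below every ABW array, and the difference was -1.76 (SE 0.25, 3.39-fold, adjusted p = 0.633 from limma), -1.80 within slide 3. CXCL3, a close relative, had levels of -0.38, -2.92 and -2.07 in ABW and of -3.57, -2.90 and -4.78 in LBW, so that the groups overlapped at ABW replicate 2 and LBW replicate 2. Its difference was -1.96 (SE 0.74, adjusted p = 0.813 from limma), and it lost its call without ABW replicate 1 or 3 or LBW replicate 1 or 3, at values from -2.10 to -1.26. A clone with no symbol, CO647386, which the array annotation describes as highly similar to human CXCL2, was chosen after its values were seen. It stood at 0.96, 0.23 and 0.00 in ABW and at -2.31, -0.29 and -1.19 in LBW, a difference of -1.66 that lost its call without ABW replicate 1 (-1.38) and stood at -2.71 within slide 3. These chemokines are near-identical in sequence, so their probes may share signal. CCL11, which draws eosinophils, differed by -1.67 (SE 0.70) and was not called, nor were CCL2, which draws monocytes, at -0.33 (SE 0.67) and CXCL16 at 0.47 (SE 0.26).

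Both receptor chains of interleukin-1 with a name on the array were lower in LBW. IL1R2, the decoy receptor that binds interleukin-1 without signalling, had levels of -1.13, 1.55 and 0.53 in ABW and of -2.09, -2.13 and -1.61 in LBW. The LBW arrays lay close together below all ABW arrays, and the difference was -2.26 (SE 0.64, 4.78-fold, adjusted p = 0.783 from limma), -2.40 within slide 3. That difference lost its call by the methods' t-test and with slide as a block. IL1RAP, the accessory chain of the signalling receptor, had levels of 0.68, 1.28 and -0.02 in ABW and of -0.42, -0.91 and -0.25 in LBW. The groups did not overlap, and the difference of -1.17 (SE 0.37) lost its call without LBW replicate 2 (-0.98), by the methods' t-test and with slide as a block, while another probe of the gene differed by -0.49 (SE 0.50) and was not called. Of 10 named cytokine receptors and their brakes, 3 were called lower, with IL15RA as the third, and 1 higher, LEPR, the leptin receptor. IL15RA, well above background on 3 ABW arrays and 1 LBW array, differed by -1.32 (SE 0.50) and by -0.34 within slide 3, and lost its call without ABW replicate 1 or 3 or LBW replicate 2 or 3 (-1.33 to -0.82) and with normexp background correction (-0.23). LEPR differed by 1.04 (SE 0.36), and lost its call without ABW replicate 1 or 3 or LBW replicate 1 or 3 (0.81 to 1.05) and with that correction (0.53). Without LBW replicate 1, 5 of the 10 were called lower and 0 higher, and within slide 3, 0 lower and 1 higher. OSMR, SIGIRR and TNIP1 were not called, at differences of -0.29, -0.23 and 0.02.

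Few markers of leukocytes had a name on the array. IL1R2, which is also a neutrophil gene, and MMP25, a membrane-bound protease of neutrophils, were the named members of the neutrophil list, and both were called lower. MMP25 had levels of -1.83, -2.58 and -4.53 in ABW and of -8.13, -4.16 and -7.23 in LBW, with 3 of 3 and 1 of 3 arrays well above background. Its difference of -3.53 (SE 1.14) lost its call without ABW replicate 1 or 2 or LBW replicate 1 or 3, at values from -3.33 to -2.71, and was -5.15 within slide 3 and -1.24 with normexp background correction. CD200R1, the only named monocyte gene, was well above background on 2 ABW arrays and 1 LBW array and differed by -2.17 (SE 1.07), which was not called. Within slide 3 it differed by -0.24. No gene of the lymphocyte or erythroid list had a name on the array. The part of leukocyte numbers in the values of the chemokine genes was not tested.

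**Figure D3:**
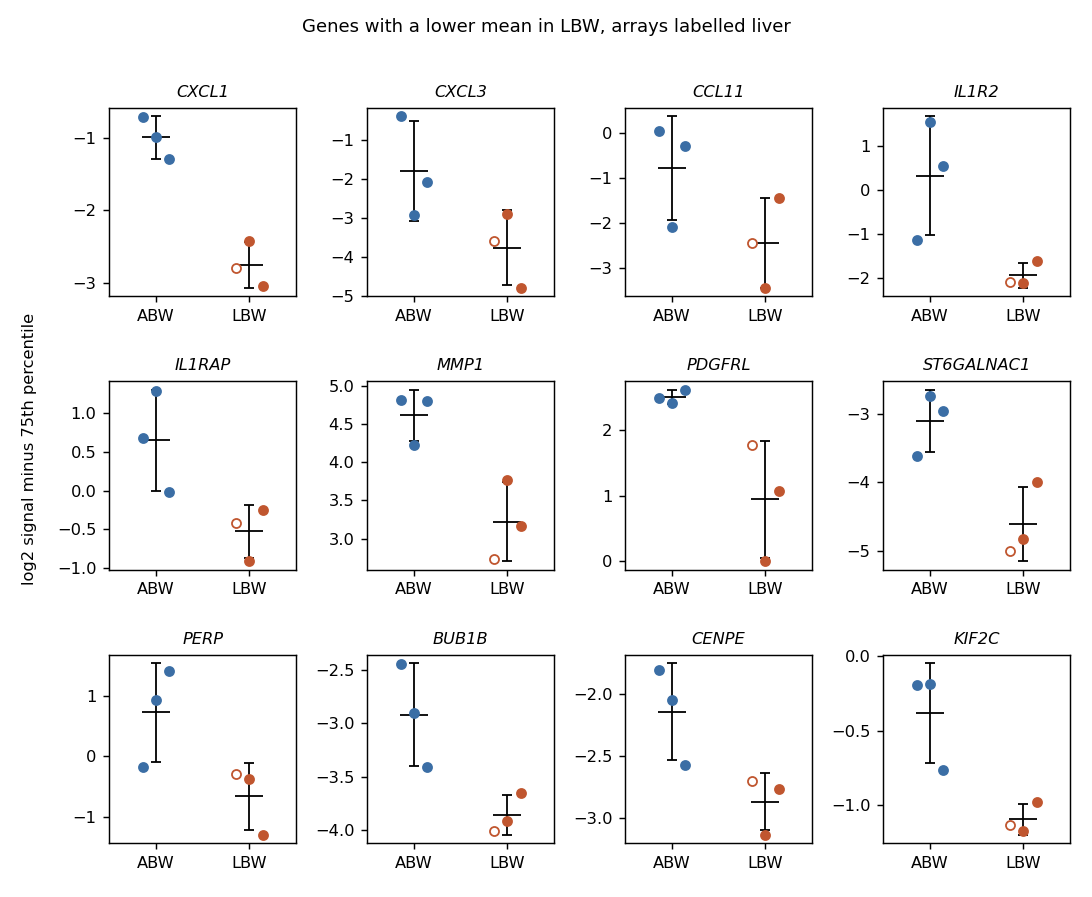
Levels of 12 genes with a lower mean in LBW on each of the 6 arrays labelled liver (log2 signal minus the 75th percentile), with the mean and SD of each group, and LBW replicate 1, which shared slide 3 with the ABW arrays, as an open circle. The groups do not overlap except in CXCL3 and CCL11.

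MMP1 was lower in LBW as well. Its levels were 4.82, 4.23 and 4.80 in ABW and 2.73, 3.76 and 3.16 in LBW, without overlap, and the difference was -1.40 (SE 0.32, 2.64-fold, adjusted p = 0.730 from limma) and -1.88 within slide 3. Of the 6 named proteases and inhibitors, MMP1 and MMP25 were called lower and 0 higher. ADAM17, which sheds cytokines from the cell surface, differed by -0.40 (SE 0.22), ADAM8 by -0.10 (SE 0.33), ADAM33 by 0.52 (SE 0.34) and ADAMTS13 by 0.54 (SE 0.38), and none of them was called. Of the matrix genes, COL1A1 differed by -0.12 (SE 0.21), FN1, fibronectin, by -0.08 (SE 0.19), VCAN by 0.00 (SE 0.25) and OLFML3 by -0.34 (SE 0.23). Of the 8 matrix genes 1 was called, SERPINF1, a secreted inhibitor of angiogenesis, at -0.76 (SE 0.31). It lost its call without ABW replicate 2 or 3 or LBW replicate 2 or 3 (-0.72 to -0.52) and stood at -0.20 within slide 3. Enzymes of collagen processing were not called, with PLOD2 at -0.54 (SE 0.25), P4HA1 at -0.39 (SE 0.33) and PCOLCE2 at -0.84 (SE 0.61). PDGFRL, a secreted protein akin to a growth factor receptor, had levels of 2.48, 2.40 and 2.61 in ABW and of 1.77, 0.00 and 1.07 in LBW. All LBW arrays lay lower, LBW replicate 1 least, and the difference was -1.55 (SE 0.43, adjusted p = 0.783 from limma) and -0.73 within slide 3.

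Of 5 named epithelial genes 2 were called lower and 0 higher, with a median difference of -1.39. ST6GALNAC1, which adds sialic acid to mucins, had levels of -3.61, -2.73 and -2.96 in ABW and of -5.01, -4.83 and -3.99 in LBW, and the difference was -1.51 (SE 0.35, 2.85-fold, adjusted p = 0.730 from limma), -1.91 within slide 3 and -0.69 with normexp background correction. PERP, a protein of desmosomes, had levels of -0.17, 0.94 and 1.42 in ABW and of -0.30, -0.38 and -1.30 in LBW, which meet closely at replicate 1 of each group. Its difference of -1.39 (SE 0.47) lost its call without ABW replicate 2 or 3 or LBW replicate 3, at values from -1.28 to -1.04. SPRR3 spread widely, from -2.90 to -0.23 in ABW and from -2.41 to 1.70 in LBW, and MSLN, mesothelin, stood at 3.61 to 4.49 and at 3.40 to 4.29, and neither was called. DEFB1, an epithelial defensin, differed by -1.51 (SE 0.66), and by -0.48 within slide 3, and was not called. Within slide 3 the median of the list was -0.48, where 1 gene was called higher and 1 lower, and under normexp background correction -0.40.

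All 18 named genes of the cell cycle list had a lower mean in LBW, with a median difference of -0.54 and a range of -0.94 to -0.21, and 3 were called lower and 0 higher. All 18 were well above background on the 6 arrays. BUB1B, a kinase of the spindle checkpoint, had levels of -2.45, -2.90 and -3.41 in ABW and of -4.01, -3.91 and -3.66 in LBW, a difference of -0.94 (SE 0.28, 1.92-fold, adjusted p = 0.783 from limma) that stayed called with each array left out but not with normexp background correction (-0.53). CENPE, a motor of the kinetochore, had levels of -1.80, -2.05 and -2.57 in ABW and of -2.70, -3.13 and -2.77 in LBW. Its groups lay close but apart, and the difference of -0.73 (SE 0.26) lost its call without ABW replicate 1 or 2 or LBW replicate 2 (-0.68 to -0.56) and with that correction (-0.53). KIF2C, a kinesin that takes microtubules apart, had levels of -0.19, -0.18 and -0.76 in ABW and of -1.13, -1.17 and -0.97 in LBW, a difference of -0.71 (SE 0.22) that lost its call without ABW replicate 1 or 2 (-0.62 and -0.61). Of the genes not called, CDCA5, CKS2, CDCA8 and PTTG1 differed by -0.63, -0.62, -0.52 and -0.21. Relative to the ABW mean of each gene, the median of the list stood at 0.45, 0.01 and -0.39 on the ABW arrays and at -0.68, -0.52 and -0.39 on the LBW arrays. The ABW arrays spread widely, and ABW replicate 3 overlapped with LBW replicate 3. The median was -0.35 without ABW replicate 1, with 1 gene called, and -0.73 without ABW replicate 3, with 9 called. It lay between -0.68 and -0.37 under the other scalings, background correction and slide terms, where all 18 means stayed lower, and the number called was 1 with normexp background correction and 0 with scaling to the spike-in controls. Without ABW replicate 1 the mean was lower for 17 of the 18. Genes of mitosis vary together across arrays, so that the 18 genes are not 18 separate observations.

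**Figure D4:**
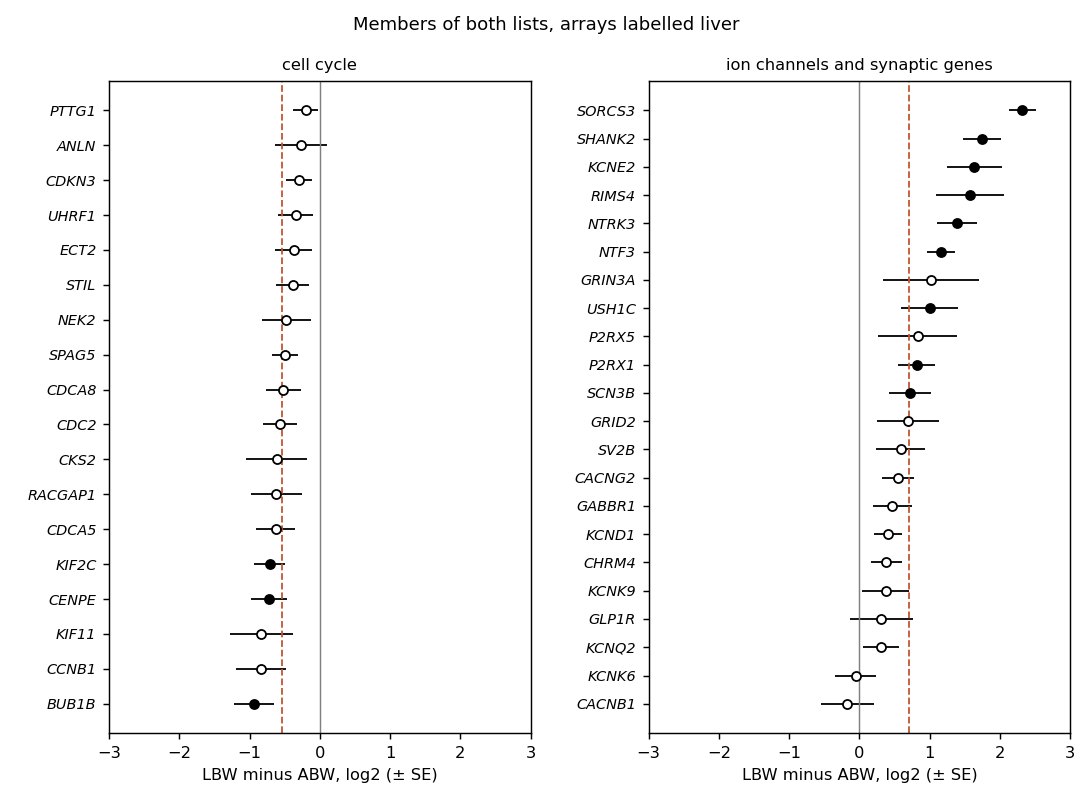
Difference of LBW and ABW (log2, ± SE) on the arrays labelled liver for the 18 named cell cycle genes and 22 of the 24 named ion channel and synaptic genes, filled where called, with the median of each whole list as a dashed line. All cell cycle genes lie below 0 and 20 of the 22 plotted ion channel and synaptic genes above it.

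Of the 24 named ion channel and synaptic genes 10 were called higher and 0 lower, 22 had the higher mean in LBW, and the median difference was 0.70. Many of these probes were dim, and 9 of the 24 lay in the dimmest bin of all probes, where 8.67% were called higher. Of the 17 that were well above background on all 6 arrays, 7 were called higher, with a median of 0.69. The share called higher was 1.95% of all such probes and 5.89% of probes with a symbol at any level. The list was written with earlier results of these data known, so these shares cannot test for an excess. With a floor set under genes that were at background in a group, the median of the 24 was 0.55. The median was 0.16 with normexp background correction, with 6 called, and 0.40 within slide 3, also with 6 called, and 5 were called with scaling to the spike-in controls. With 1 array left out the number called was between 6 and 11, 6 without ABW replicate 1 or 2.

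SORCS3, a sorting receptor of neurons, had the lowest unadjusted p of the 17117 probes. Its levels were -4.62, -4.52 and -4.14 in ABW and -2.13, -2.12 and -2.07 in LBW. The 3 LBW arrays lay close together above all ABW arrays, and the difference was 2.32 (SE 0.19, 4.99-fold, adjusted p = 0.145 from limma) and 2.29 within slide 3. With normexp background correction it was 1.40, and the call held under all alternatives tried. NTF3, the growth factor neurotrophin-3, had levels of 0.11, -0.25 and -0.24 in ABW and of 1.08, 1.17 and 0.86 in LBW. Every LBW array was higher, and the difference was 1.16 (SE 0.19, 2.23-fold, adjusted p = 0.633 from limma) and 1.20 within slide 3. NTRK3, the receptor for neurotrophin-3, was measured by a pair of probes for different transcripts. The first had levels of -0.38, -0.59 and 0.36 in ABW and of 1.15, 2.06 and 1.56 in LBW, a difference of 1.80 (SE 0.34, adjusted p = 0.640 from limma). The second had levels of 1.31, 0.66 and 1.69 in ABW and of 2.47, 2.71 and 2.64 in LBW, a difference of 1.39 (SE 0.29, adjusted p = 0.684 from limma). Ligand and receptor thus shared a direction in each probe, and all 3 probes stayed called with each array left out.

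RIMS4, a protein of vesicle release, had levels of -2.62, -1.61 and -3.14 in ABW and of -0.16, -1.08 and -1.42 in LBW, and the difference was 1.57 (SE 0.48, adjusted p = 0.813 from limma). KCNE2, an accessory subunit of potassium channels, had levels of -4.50, -5.00 and -5.46 in ABW and of -4.03, -2.78 and -3.24 in LBW, and the difference was 1.64 (SE 0.39, adjusted p = 0.734 from limma), with 0.96 within slide 3 and 0.76 with normexp background correction. In RIMS4 LBW replicate 1 was the highest array and in KCNE2 the lowest of the LBW arrays, and neither gene showed an overlap. Other called members were USH1C, a scaffold protein of hair cells, P2RX1, a receptor for ATP, SCN3B, a subunit of sodium channels, and SHANK2, a scaffold of synapses. USH1C had a pair of probes, and the dimmer stood at -5.11, -4.89 and -4.84 in ABW and at -0.82, -4.40 and -3.29 in LBW, so that its difference of 2.11 (SE 0.84) was set largely by LBW replicate 1. That probe kept its call without LBW replicate 1 (1.1) and lost it without any ABW array or LBW replicate 3 (2.03 to 2.33), and the other, at 1.0 (SE 0.41), lost it without any array but LBW replicate 3 (0.55 to 1.16). The probes stood at 4.12 and 1.89 within slide 3, and at 1.13 and 0.60 with normexp background correction, where neither was called. SHANK2 was well above background on 0 ABW arrays and 1 LBW array, so no fold or bound is given for it (adjusted p = 0.633 from limma). SHANK2 stood at 0.16 under normexp background correction and was not called. P2RX1 differed by 0.82 (SE 0.26). SCN3B passed the rule but was well above background on none of the 6 arrays, so no fold is given for it. Of the members not called, GABBR1, P2RX5, KCNK6 and CACNB1 differed by 0.47, 0.83, -0.05 and -0.17. Within slide 3 they differed by 0.58, -0.05, 0.51 and 0.35.

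Outside this list NMNAT2, an enzyme of NAD synthesis in axons, stood at -3.89, -4.44 and -3.02 in ABW and at -2.17, -1.84 and -1.76 in LBW. The difference was 1.86 (SE 0.37, 3.63-fold, adjusted p = 0.668 from limma) and 1.61 within slide 3, and 1.23 with normexp background correction. TMEM59L had levels of -2.53, -2.47 and -3.05 in ABW and of -1.85, -0.56 and -0.69 in LBW, and TNRC4, an RNA-binding protein, of -5.45, -5.44 and -5.21 and of -4.30, -3.08 and -4.07. Both were higher on every LBW array and by more on LBW replicates 2 and 3 than on LBW replicate 1, with differences of 1.65 (SE 0.38) and 1.54 (SE 0.34) and of 0.83 and 1.06 within slide 3. With normexp background correction TNRC4 stood at 0.51 and was not called. DPEP2, a dipeptidase of the cell surface, differed by 1.23 (SE 0.37) and stayed called with each array left out. AKR1CL2, of the aldo-keto reductases, differed by 1.43 (SE 0.56) and lost its call without ABW replicate 1 or LBW replicate 2 or 3 (0.89 to 1.43), with 0.67 within slide 3 and 0.93 with normexp background correction.

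Of 3 named genes of vasoactive signalling 2 were called higher. RXFP1, the receptor for the hormone relaxin, which loosens connective tissue, had levels of -4.62, -4.43 and -3.97 in ABW and of -2.92, -2.76 and -2.54 in LBW. All LBW arrays were higher by over 1 log2 unit, and the difference was 1.60 (SE 0.23, 3.04-fold, adjusted p = 0.633 from limma), 1.42 within slide 3 and 0.93 with normexp background correction. PDE2A, an enzyme that breaks down cyclic AMP and cyclic GMP, had levels of 0.67, 0.39 and 0.39 in ABW and of 1.38, 1.57 and 1.67 in LBW. The groups stood well apart, and the difference was 1.06 (SE 0.18, 2.08-fold, adjusted p = 0.633 from limma) and 0.90 within slide 3. PTGIR, the prostacyclin receptor, differed by 0.43 (SE 0.18) and was not called. MCAM, an adhesion molecule of endothelium and of cells around vessels, had levels of 0.30, 0.72 and 1.27 in ABW and of 1.70, 1.65 and 1.80 in LBW, a difference of 0.95 (SE 0.27, adjusted p = 0.783 from limma). The other named endothelial gene, EGFL7, differed by -0.05 (SE 0.39), and no gene of the smooth muscle list had a name on the array.

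**Figure D5:**
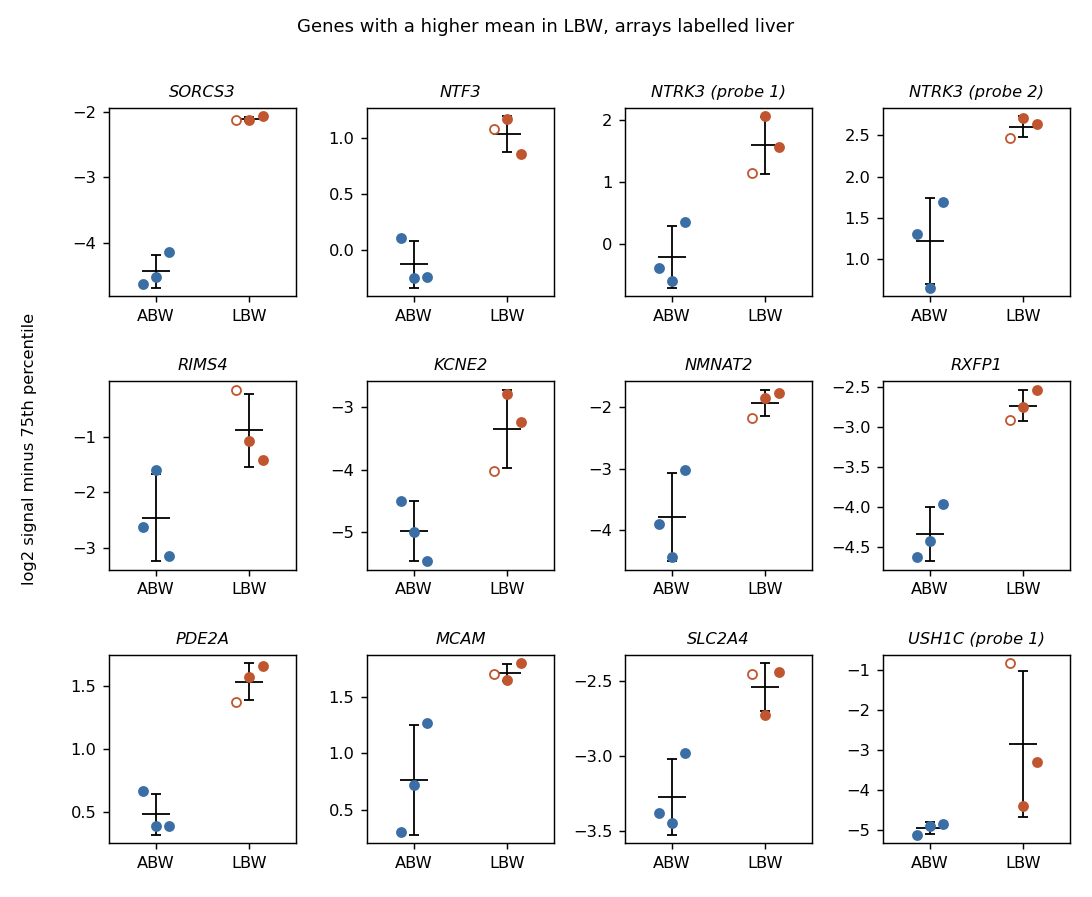
Levels of 11 genes with a higher mean in LBW, NTRK3 with both probes, on each of the 6 arrays labelled liver (log2 signal minus the 75th percentile), with the mean and SD of each group, and LBW replicate 1 as an open circle. No LBW array lies below an ABW array, and in USH1C the LBW mean rests largely on LBW replicate 1.

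All 8 named genes of insulin signalling had the higher mean in LBW, with a median difference of 0.28 beside 0.14 for all probes with a symbol, and 1 was called. SLC2A4, the insulin-responsive glucose transporter, had levels of -3.38, -3.45 and -2.98 in ABW and of -2.45, -2.72 and -2.44 in LBW. Its groups did not overlap, and the difference was 0.73 (SE 0.20, 1.66-fold, adjusted p = 0.783 from limma), which stayed called with each array left out. With normexp background correction it was 0.45 and not called. TSC2, FOXO4 and STK11, which act below the insulin receptor or as its brakes, differed by 0.27 (SE 0.17), 0.28 (SE 0.19) and 0.40 (SE 0.18). TRIB2, a pseudokinase, differed by 0.29 (SE 0.19) and was not called. PASK, a kinase that senses nutrients, had levels of -8.47, -3.46 and -4.73 in ABW and of -5.17, -3.47 and -3.28 in LBW. Its difference of 1.58 (SE 1.27) was set by ABW replicate 1, where it was not well above background, and was not called. Within slide 3 the difference of PASK was 0.38.

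Several groups held few calls or none. None of 7 genes of hypoxia and glycolysis was called, and 6 had the lower mean in LBW, with a median of -0.29. Without LBW replicate 1 the median was -0.07 and 1 gene was called higher. SLC2A3, HIF1A and LDHA differed by -0.68 (SE 0.30), -0.42 (SE 0.33) and -0.30 (SE 0.20), and within slide 3 by -0.89, -1.14 and -0.09. The 12 genes of oxidative phosphorylation had a median of 0.03 and the 9 of cytosolic ribosomal proteins of -0.07, with none called. Of 12 genes of embryonic patterning 11 had the higher mean in LBW, with a median of 0.25 beside 0.14 for all probes with a symbol, and EN1, a homeobox factor, was called at 1.14 (SE 0.37). EN1 lost its call without ABW replicate 1 (0.95) and with normexp background correction (0.50), and stood at 0.76 without LBW replicate 2. SHH, PTCH1, WNT3 and AXIN1 differed by 0.21, 0.28, 0.15 and 0.07. NR3C1, the glucocorticoid receptor, differed by -0.11 (SE 0.18). The 3 named genes of striated muscle, TCAP, TNNC1 and MYH6, differed by 0.26, 0.83 and 0.67 and were not called. DDX3Y, the only named Y-linked gene, had levels between -1.72 and -1.28 on all 6 arrays, and differed by -0.18 (SE 0.18). Its probe was well above background on 6 of 6 arrays labelled liver, 8 of 8 labelled umbilical cord and 8 of 8 of skeletal muscle. The study described the neonates as female, and the source of this signal was not tested.

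Hepatocyte genes were mostly at background. Of 11 hepatocyte genes 10 lay in the dimmest bin of the probes. KYNU, which breaks down kynurenine, was called lower at -1.24 (SE 0.29), with 3 of 3 ABW and 1 of 3 LBW arrays well above background, and with normexp background correction stood at -0.32 and was not called. TAT was called higher (adjusted p = 0.813 from limma). It was well above background on 0 ABW arrays and 1 LBW array, so no fold or bound is given for it. It lost its call without ABW replicate 1 or 2 or LBW replicate 2 or 3 (0.74 to 1.15), with 0.37 within slide 3. With normexp background correction it stood at 0.07 and was not called. Of 8 genes of drug metabolism, 6 of them well above background on all 6 arrays, 3 were called lower. UGT1A6, a glucuronosyltransferase whose relatives share most of its transcript, had levels of -2.81, -4.19 and -4.51 in ABW and of -5.69, -5.31 and -5.46 in LBW. The LBW arrays lay below all ABW arrays, and the difference was -1.65 (SE 0.44, adjusted p = 0.783 from limma), and -0.71 with normexp background correction. NAT1 differed by -0.79 (SE 0.23), and by -0.15 with that correction, where it was not called. UGT2B11 was well above background on 1 ABW array and 0 LBW arrays and lost its call without ABW replicate 2 or 3 or any of the LBW arrays (-1.72 to -0.95) and with that correction (-0.17).

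Genes outside these lists were also called lower in LBW. ELMOD1, of a family of regulators of small GTPases, had levels of -0.81, -2.25 and -5.57 in ABW and of -5.59, -8.50 and -8.57 in LBW, with 3 of 3 and 1 of 3 arrays well above background. ABW replicate 3 and LBW replicate 1 nearly met, and the difference was -4.67 (SE 1.35, adjusted p = 0.783 from limma), -2.71 within slide 3 and -1.75 with normexp background correction. C5orf46 had levels of -0.53, -1.12 and -3.28 in ABW and of -6.61, -5.01 and -3.57 in LBW, a difference of -3.43 (SE 0.96) that stayed called with each array left out and was -1.93 with normexp background correction. SNAI1, a repressor of epithelial genes, differed by -2.20 (SE 0.91) and COL4A4, a chain of basement membrane collagen, by -2.27 (SE 0.76), each with overlapping groups and well above background on 2 and 1 of the LBW arrays. With normexp background correction they differed by -0.63 and -0.61, and SNAI1 was not called, with -3.54 within slide 3. SNAI1 also lost its call without ABW replicate 1 or 2 or LBW replicate 1 or 3 (-2.47 to -1.34), and COL4A4 without ABW replicate 2 or 3 or LBW replicate 1 or 2 (-2.34 to -1.79). CCDC81, ITGBL1, C13orf33 and SH3YL1 differed by -1.71, -1.58, -1.41 and -1.41, and within slide 3 by -0.54, -0.19, -2.61 and -0.82. With normexp background correction ITGBL1 and C13orf33 stood at -0.89 and -0.86. CCDC81 lost its call without ABW replicate 2 or 3 or LBW replicate 3 (-1.77 to -1.57) and stood at -1.05 without LBW replicate 2. ITGBL1 lost it without any array but LBW replicate 1 (-1.65 to -0.96), C13orf33 without ABW replicate 2 or 3 (-1.37 to -1.30), with -0.82 without LBW replicate 1, and SH3YL1 without ABW replicate 3 (-1.27), with -0.91 without LBW replicate 2. KRTAP10-11, of a family of near-identical keratin-associated proteins, had a pair of probes that disagreed, at -1.76 (SE 0.42) and 0.70 (SE 0.17), the latter 0.09 and not called with normexp background correction, and no direction is given for it.

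Of the probes that were well above background on all arrays of a group and on none of the other group, 50 were so in LBW and 6 in ABW, and 37 and 6 of these were called. A pair of these probes had a symbol. GOLSYN had levels of -7.97, -8.56 and -8.63 in ABW, none well above background, and of -6.39, -5.55 and -5.50 in LBW (adjusted p = 0.516 from limma). A bound, with each ABW array raised to its lowest signal well above background, was 2.78-fold. CCDC146 had levels of -8.19, -8.0 and -6.74 in ABW and of -3.77, -5.17 and -6.83 in LBW (adjusted p = 0.813 from limma). Its groups overlapped at replicate 3 of each, and its bound was 3.49-fold. It lost its call without ABW replicate 1 or 2 or LBW replicate 1 or 2 (1.65 to 2.35), with 3.87 within slide 3. With normexp background correction GOLSYN and CCDC146 stood at 0.25 and 0.40 on the log2 scale. There they were not called and fell below their bounds. Probes without a symbol made up 652 of the 806 calls. Among those measured on all arrays with groups apart, NM_000929 and AK094929 were the most raised in LBW, at 2.64 and 2.39, and NM_001048 and NM_024101 the most lowered, at -2.76 and -2.56. The sources used here pair these accessions with no name.

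Whether the difference between LBW and ABW was particular to the arrays labelled liver was tested by its interaction with tissue over all 22 arrays. Group and slide cannot be told apart in the other tissues, where muscle ABW lay on slide 1 and muscle LBW on slide 2, and umbilical cord LBW on slide 5 and ABW on slides 4 and 6. The pair of ABW arrays on slide 6 was also read by another version of the scanner software. No probe had an adjusted p under 0.05 against the mean of the other tissues in limma, and 667 had an unadjusted p under 0.05, and none did against skeletal muscle, with 471. Without LBW replicate 1 these became 9 and 4. Against the arrays labelled umbilical cord 116 probes had an adjusted p under 0.05, of which 110 were more positive on the arrays labelled liver. For these 110 the LBW minus ABW difference had a median of 0.07 where the label was liver and of -2.71 where it was umbilical cord. With the label liver, 96 of the 116 differed by less than 1.5-fold. The number of probes with an interaction was 25 with normexp background correction, 2 with scaling to the spike-in controls, and 57 to 147 with 1 array left out. For SORCS3 the LBW mean was also higher in skeletal muscle, by 1.18 (SE 0.73), and on the arrays labelled umbilical cord, by 1.54 (SE 0.73), for NTF3 by 0.20 (SE 0.25) and by -0.08 (SE 0.25), and for RXFP1 by 0.91 (SE 0.41) and by 0.35 (SE 0.41). CXCL1 differed by 0.16 (SE 0.63) in skeletal muscle and by -2.22 (SE 0.63) on the arrays labelled umbilical cord. The study listed the named genes after a test over these same arrays, so a direction shared between tissues is no independent evidence. For none of SORCS3, NTF3, RXFP1 and CXCL1 did the test of interaction pass the threshold. That test shares 1 estimate of a probe's spread over all 22 arrays. For CXCL1 the SE was 0.96 for the interaction with either other tissue label, against 0.25 on the 6 arrays labelled liver. A result short of the threshold is therefore not evidence of a shared effect.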

How the data were processed

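RNA of 22 samples was hybridized to single-colour Agilent rhesus arrays, whose probes the study annotated against human genes. The intensities deposited by the authors are signals of Agilent Feature Extraction (10.1.1.1 on these 6 arrays), background-subtracted and not scaled between arrays. A deposited table of log2 values, scaled by the authors to the 75th percentile, served as an alternative. Duplicate spots (2 per probe) were averaged, outliers excepted, and each array's 75th percentile was taken off on the log2 scale. A probe was kept where 75% or more of the arrays in 1 of the 6 groups had it well above background (17117 of 20217). Symbols came from the study's additional file (1667 probes), and the RefSeq table matched 0 of 19376 accessions. The number of arrays, 3 per group, limits the precision, and an exact permutation test could not go below p = 0.1.

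LBW was compared with ABW by limma 3.58.1 (R 4.3.3, statmod 1.5.0) on the 6 arrays, with Benjamini-Hochberg adjustment. Interactions were fitted over 22 arrays, taken as independent, although liver and muscle may come from the same neonates. The fits were tested on simulated data. Tables and plots used Python 3.11.15, numpy 2.4.6, pandas 2.3.3 and matplotlib 3.10.9. A gene with several probes stands in its list by the brightest. Named are, per direction, the 12 largest separated differences of probes measured on all 6 arrays, up to 6 called and 4 bright uncalled members of each list, up to 6 bounded probes, up to 5 probes with an interaction, and PASK, TRIB2 and ELMOD1. P2RX1, SCN3B and CO647386 lie outside this rule and were chosen after their values were seen. The comparison, the lists and the rule were chosen with earlier results of these data known. Of 30 lists, 4 (smooth muscle, erythroid, lymphocyte and X inactivation) had no named gene. Alternatives changed the background correction, scaling, filter, test, prior, array weights, slide and replicate terms, probe averaging and the arrays included. A pair of genes of the ion channel and synaptic list enters its counts but is not reported here.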

Additional observations from a re-analysis of the deposited data

Results flagged for a closer look

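By the interaction in limma, the difference between LBW and ABW under the label liver was unlike that under the label umbilical cord for 116 probes, 74 of them with a symbol, and 4 genes described above were among them. Under the label umbilical cord, LBW lay on slide 5 and ABW on slides 4 and 6, with those on slide 6 read by another software version, so that group and slide cannot be told apart there. For ELMOD1 the LBW difference under the label liver was the lower, by -5.71 on the log2 scale (adjusted p = 0.0244 from limma), with 1 of 3 LBW arrays labelled liver well above background. For DDX3Y it was the higher by 3.09, for a probe of RPL17, a ribosomal protein, by 2.13 and for GOLSYN by 2.03 (adjusted p = 0.00316, 0.0219 and 0.0447 from limma). DDX3Y and that probe of RPL17 differed by -0.18 and -0.12 under the label liver and by -3.27 and -2.25 under the label umbilical cord. DDX3Y is Y-linked, while the study described the neonates as female, and the source of its signal was not tested. GOLSYN was well above background on 0 of the ABW arrays labelled liver, so that its value depends on a level at background. The other probe of RPL17 gave an interaction of 0.94 (adjusted p = 0.642 from limma).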

How the results depend on the processing

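With 3 arrays per group, LBW replicate 1 the only LBW array on slide 3 and no probe past an adjusted p of 0.05, the 806 calls depended on the processing. The number called was 303 (121 higher, 182 lower) with normexp background correction, 262 (115 and 147) with scaling to the spike-in controls, 527 (296 higher) with probes well above background on all 6 arrays, 310 (224 and 86) by the methods' t-test and 513 (300 higher) in a fit of all 6 groups. It was 1496 (794 and 702) with slide as a fixed block and 1400 (649 lower) within slide 3. An adjusted p under 0.05 was reached by 10 probes with scaling to the spike-in controls and 2 in the fit of all 6 groups. With 1 array left out, 635 to 1425 probes were called, 367 to 843 higher and 268 to 582 lower, and 0 to 1 had an adjusted p under 0.05, with the lowest counts without LBW replicate 2 and the highest without LBW replicate 1. The interaction with the mean of the other tissues gave 1 probe with scaling to the spike-in controls and 0 to 9 with 1 array left out, that with skeletal muscle 0 to 4, and that with umbilical cord 25 with normexp background correction, 2 with scaling to the spike-in controls and 57 to 147 with 1 array left out. KRTAP10-11 turned from 0.70 to -0.53 when probes of an accession were averaged. The cause of these shifts was not tested.

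The deviations of same-numbered arrays correlated at 0.02, 0.12 and 0.17. No correlations of differently numbered arrays were set beside them, so whether the replicate numbers pair the arrays was not tested. With the replicate block 950 probes were called, 513 higher and 437 lower, of which 648 were among the 806.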
